A study of Homo sapiens with 7 samples.

Results

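Cholesterol is assembled from acetyl-CoA through the mevalonate pathway, in which HMGCS1, IDI1 and FDPS build isoprenoid units, FDFT1 joins them into squalene, and SQLE, LSS, CYP51A1 and DHCR7 turn squalene into sterol. Transcription of these genes is known to be driven by SREBP2, the product of SREBF2, which the escort protein SCAP carries to the Golgi when membrane sterol is low and which the INSIG proteins hold back when it is high. The 8 enzyme genes were chosen by name from the enzymes of the pathway, with earlier results of these data known. Every isoform of the deposited table whose gene ID had the Ensembl stem of any of these genes was taken. They made up 8 of the 14294 genes and 863 of the 386982 isoforms in the table, 36 of the 863 having a reference transcript ID. All 8 had a mean level of at least 5 TPM, the deposited unit of reads scaled to the library total, as did 7877 genes in all, which are the genes compared.

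The study sequenced polyadenylated RNA as full-length cDNA on a PacBio instrument. The cells were HUES66, a line of human embryonic stem cells, in which Cas13d, an RNA-guided nuclease that cuts RNA, was directed at isoforms of the splicing regulator RBFOX2. There was 1 control library, with the genotype label WT, and 6 knockdown libraries with the genotype label RBFOX2 isoform KD, each carrying an RBFOX2 id: G3 (178147), G5 (178149), G11 (178136), G12 (178135), G13 (178145) and G14 (178146). The labels do not tell which isoform an id denotes, and all 7 samples carry the description piggyBac, the name of a transposon used to insert DNA into a genome. All 7 cultures, the control included, had 1 µg/ml doxycycline and a time point of 24 h. The 6 are called the G libraries below. Each group is 1 library, so no difference had a replicate check, no p-value was computed, and every interval covers counting error only. All 6 comparisons share the 1 control library.

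The libraries held 16801842 reads in the control and between 17848098 (G3) and 26678538 (G12) in the G libraries. The RBFOX2 total was 39.2% of the control in G3, 52.2% in G13, and between 77.3% and 98.6% in the others. Of 8 markers of pluripotent cells, 7 were in the table, SOX2 being absent. Their levels summed to 1257 TPM in the control library and to between 689 and 992 in the others. Most of that sum was POU5F1, at 915 TPM in the control. POU5F1 and NANOG were below the control in all 6 G libraries, and L1TD1, TDGF1 and SALL4 were above it in all 6. LIN28A and DNMT3B were above it in G3 and G5 only. Of 4 markers each of neuroectoderm, mesoderm, endoderm and hepatocytes, 1, 2, 2 and 1 were in the table. Each of these sets summed to at most 0.24 TPM in any library. Isoforms absent from the control were not listed, so a gene silent in the control could not appear in a G library. A read stands for 1 sequenced cDNA molecule, and copies of 1 cDNA cannot be told from separate RNA molecules. The deposited TPM has no length term, so 3 reads, the floor used here, were worth 0.112 to 0.179 TPM. The median log2 ratio of all compared genes to the control was 0.12 (G3), 0.14 (G5), -0.04 (G11), -0.16 (G12), -0.21 (G13) and -0.10 (G14). Scaling by the median of ratios instead of the library total would raise all ratios by 0.04 (G3), 0.06 (G5), 0.17 (G11), 0.26 (G12), 0.31 (G13) and 0.25 (G14) on the log2 scale. Ratios were also computed after a trend with transcript length and GC content, fitted over all compared genes, was removed, and that value is given where it changes a call or a sign or moves a value most. In bulk RNA, fewer cells of a kind and less RNA per cell cannot be told apart.

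The short stretches in which the isoforms of FDPS and LSS differ are shown first, because the isoform results turn on them. They are read 5′ to 3′ from GENCODE 29 transcripts on GRCh38. The first is an FDPS exon at chr1:155309789-155309965 on the plus strand, skipped in most FDPS reads, with the upstream start codon it supplies in capitals. The second is the segment at chr1:155310043-155310063 that opens the longer version of the next FDPS exon, just before the main start codon. The third is the LSS segment at chr21:46222630-46222662 on the minus strand, present in the longer version of an LSS exon. The last 2 are the edges of the first intron of LSS, at chr21:46228712-46228741 and chr21:46228590-46228619 on the minus strand, with the first and last 2 intron bases in capitals.
FDPS upstream-start exon: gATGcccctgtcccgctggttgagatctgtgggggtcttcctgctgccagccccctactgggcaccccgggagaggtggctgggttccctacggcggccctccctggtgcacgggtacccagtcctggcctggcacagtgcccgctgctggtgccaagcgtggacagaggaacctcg
FDPS segment of the longer exon: agccctttgctcctccctcag
LSS segment of the longer exon: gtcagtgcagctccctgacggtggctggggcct
LSS first intron, donor side: cggagggcacGTgagtcccctcgccccggg
LSS first intron, acceptor side: tgatggccggtggtcctcAGgtgtctgcgg

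The first question was how the level of each enzyme compared with the control in the 6 knockdown libraries. HMGCS1 and SQLE were above the control in all 6 G libraries, FDFT1 was above it by a small margin in all 6, FDPS was well below it in 4, and LSS was below it in 4 and above it in 2. A difference was called at 2-fold on log2(TPM + 0.5), a scale that understates the ratios of weakly expressed genes. By that rule 1 of the 48 enzyme and library pairs was called, LSS in G13. Among all compared genes, 14.6% were at least 2-fold lower in G13, so a single lower enzyme of 8 there is close to the background. None of the 8 was called in the other libraries, where the share of genes called lower was 5.14% (G3), 10.1% (G5), 10.4% (G11), 8.79% (G12) and 18.9% (G14). The shares of genes at least 2-fold higher were 1.89%, 0.533%, 0.724%, 0.546%, 1.04% and 3.97% in G3, G5, G11, G12, G13 and G14, and none of the 8 enzymes was among them.

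**Figure D1:**
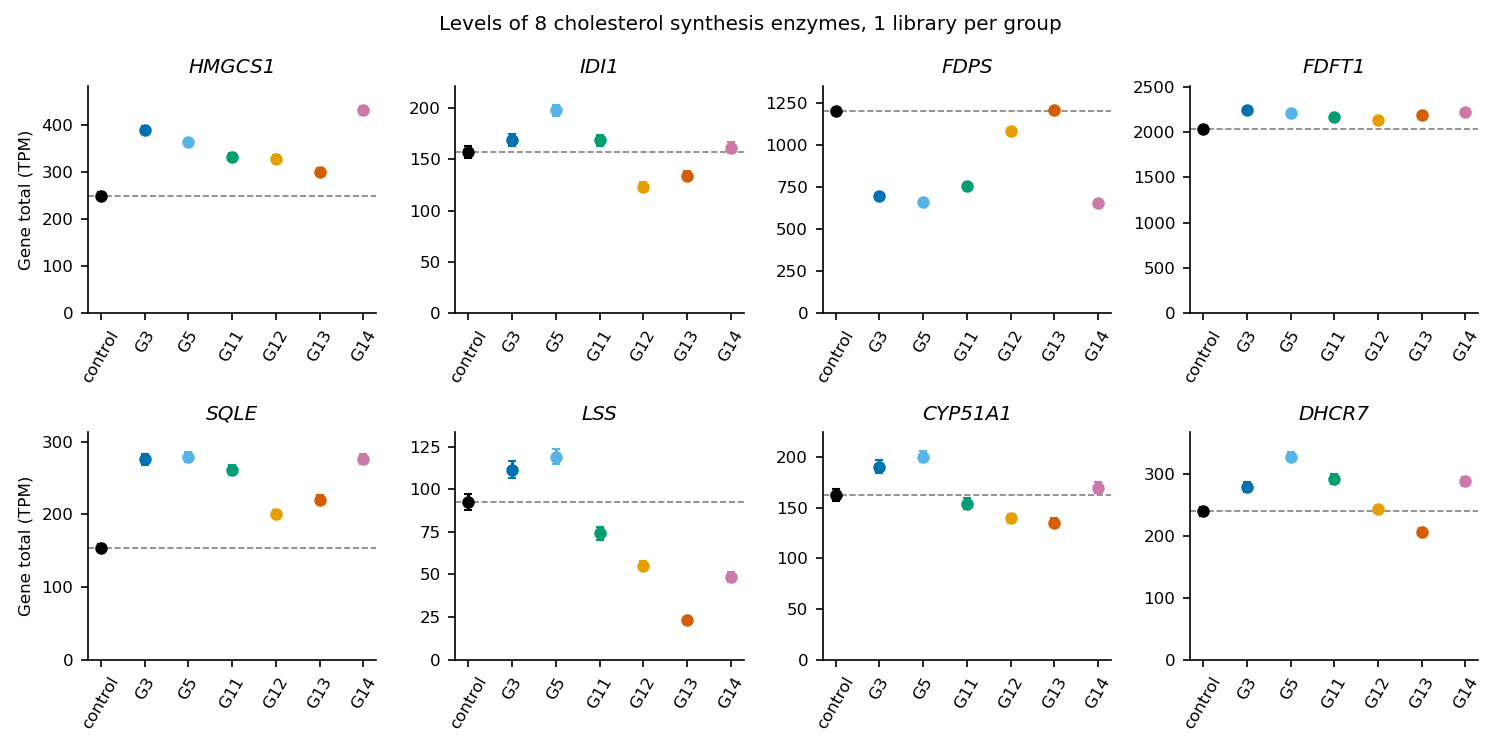
Gene total of each enzyme in TPM (vertical axis, from 0) in the control and the 6 G libraries (horizontal axis), 1 point per library with an exact Poisson 95% interval and a dashed line at the control. HMGCS1, FDFT1 and SQLE have the control as their lowest point, FDPS is near the control in G12 and G13 and lower in the other 4, and LSS spans 23.1 to 119 TPM.

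HMGCS1 (ENSG00000112972, minus strand of chromosome 5, 43289395 to 43313512) joins acetyl-CoA units in an early step of the pathway. Its level was 250.6 TPM in the control, 390 (G3), 364 (G5), 332 (G11), 329 (G12), 302 (G13) and 432 (G14). All 6 G libraries lay above the control, with G13 nearest to it and G14 farthest, and only G11 and G12, neighbours in this order, were within counting error of each other. The level was 120% of the control in G13 (95% interval 116 to 125) and 172% in G14 (166 to 179), and the median log2 ratio over the 6 was 0.47. Ratios freed of the length and GC trend were still positive in all 6, from 0.09 in G13 to 0.49 in G3. In G14 the log2 ratio of 0.78 became 1.03 under median-of-ratios scaling, which is past 2-fold.

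IDI1 (ENSG00000067064, minus strand of chromosome 10, 1039152 to 1049170) interconverts the building blocks of all isoprenoids. It was at 157 TPM in the control, 169 (G3), 198 (G5), 168 (G11), 123 (G12), 134 (G13) and 161 (G14). G5 was the highest and G12 the lowest, with the control in the lower middle. The control, G14, G11 and G3 were each within counting error of the next in that order. The log2 ratio ranged from -0.35 in G12 to 0.33 in G5, with a median of 0.07. The length and GC content assigned to IDI1 rest on isoforms with 0.502% of its reads, so its trend-removed values are not used. Of its 22 isoforms, 1 has a joined gene ID that starts with that of IDI1, so the IDI1 level is uncertain. With joined IDs left out the log2 ratio was -0.24 in G12 and 0.16 in G14, in place of -0.35 and 0.04. The median was then 0.13.

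FDPS (ENSG00000160752, plus strand of chromosome 1, 155308748 to 155320666) makes farnesyl diphosphate, the branch point to sterols and to lipid anchors of proteins. Its level was 1205 TPM in the control, 697 (G3), 663 (G5), 757 (G11), 1085 (G12), 1206 (G13) and 653 (G14). G3, G5, G11 and G14 were together at a low level, while G12 and G13 stood near the control and G13 was within counting error of it. The low libraries were at 57.9% (56.6 to 59.2), 55.01% (53.9 to 56.1), 62.8% (61.5 to 64.1) and 54.2% (53.04 to 55.4) of the control in the order G3, G5, G11 and G14. G12 was at 90.1% (88.5 to 91.7) and G13 at 100.1% (98.3 to 102). FDPS transcripts are short, 1243 nt weighted by isoform level, which is shorter than all but 10.7% of compared genes. With the trend removed the 4 low libraries were at -0.27 to -0.40 on the log2 scale, in place of -0.67 to -0.88, and G12 and G13 were at 0.07 and 0.17. The annotation holds 8 FDPS pseudogenes, so how the authors' counting placed reads shared with these copies makes the FDPS level uncertain.

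FDFT1 (ENSG00000079459, plus strand of chromosome 8, 11795573 to 11839309), squalene synthase, commits the pathway to sterols. It was at 2032 TPM in the control, 2240 (G3), 2216 (G5), 2172 (G11), 2129 (G12), 2184 (G13) and 2224 (G14). The control was the lowest, and the highest library exceeded it only 1.10-fold. G3 was at 110% of the control (109 to 112) and G12 at 105% (103 to 106). The SD of its log2 level over the 7 libraries was 0.048, a spread below that of all but 0.038% of compared genes. With between 34140 and 56787 reads per library it was the most deeply read of the 8. The median log2 ratio was 0.11 and was 0.10 with the trend removed.

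SQLE (ENSG00000104549, plus strand of chromosome 8, 124998497 to 125022283), squalene epoxidase, performs the first oxygenation step and is a known control point of the pathway. Its level was 153 TPM in the control, 276 (G3), 279 (G5), 261 (G11), 199.9 (G12), 219.7 (G13) and 276 (G14). The control was again the lowest, G12 and G13 were intermediate, and G14, G3 and G5 were within counting error of each other in turn. Relative to the control, SQLE was at 182% in G5 (174 to 190.3), 180% in G14 (171 to 188) and 130% in G12 (124 to 137). Its log2 ratio lay at percentile 99.2 of all compared genes in G5 and at percentile 88.1 in G12. The median log2 ratio of 0.80 was the highest of the 8 enzymes, and with the trend removed it was 0.63, with every G library between 0.36 and 0.68. In G14 the ratio of 0.84 became 1.09 under median-of-ratios scaling.

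The control was thus the lowest of the 7 libraries for 3 of the 8 enzymes, HMGCS1, FDFT1 and SQLE, which is 37.5%. Among all compared genes the control was the lowest for 21.1%. It was the highest for none of the 8, against 20.5% of all genes. Among the 14 other synthesis enzymes described below, the control was the lowest only for LBR and MSMO1 and the highest only for PMVK and EBP. The 8 were chosen with earlier results of these data known. HMGCS1, FDFT1 and SQLE stayed above the control in every G library with the trend removed. Median-of-ratios scaling raises every ratio, so it could not have turned their direction.

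LSS (ENSG00000160285, minus strand of chromosome 21, 46188141 to 46228824), lanosterol synthase, closes the sterol rings. It was at 92.5 TPM in the control, 111 (G3), 119 (G5), 74.1 (G11), 55.2 (G12), 23.1 (G13) and 48.5 (G14). G3 and G5 stood above the control and the other 4 below it, each step of the order being larger than counting error. In G13 the level was 24.9% of the control (22.5 to 27.5), from 526 reads against 1555, which is a log2 ratio of -1.98. G14 was at 52.4% (48.4 to 56.8), G12 at 59.6% (55.5 to 64.1) and G11 at 80.1% (74.6 to 86.0). The highest library exceeded the lowest 5.16-fold, and the spread over the 7 libraries was above that of 94.6% of compared genes.

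LSS transcripts are long and rich in GC, 4586 nt and 58.9% weighted by isoform level. With the trend removed the G13 ratio was -0.52, which is no longer past 2-fold, and the other libraries lay between -0.30 and 0.14, the sign turning in G3, G11 and G12. With only isoforms of reference ID counted, G14 was at -1.09 and passed 2-fold. Of 4 fibroblast markers, 2 were in the table, COL1A1 and COL1A2, and COL3A1 and DCN were absent from it. The sum of COL1A1 and COL1A2 was 27.7 TPM in the control, 38.5 (G3), 29.9 (G5), 14.4 (G11), 9.41 (G12), 4.21 (G13) and 7.83 (G14). The control, G11, G12, G14 and G13 stood in the same falling order as for LSS, while G3 was highest for the markers and G5 for LSS. With the trend removed neither marker was past 2-fold in any G library. In G13 COL1A1 then went from -3.03 to -0.66 and COL1A2 from -1.91 to -0.81. Whether these markers, transcript length or GC content have a part in the LSS values was not tested.

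CYP51A1 (ENSG00000001630, minus strand of chromosome 7, 92112151 to 92134803) removes a methyl group from lanosterol. Its level was 163 TPM in the control, 190.6 (G3), 200.2 (G5), 154 (G11), 139 (G12), 135 (G13) and 169.7 (G14). The control was in the middle, within counting error of G14, and G13 and G12 were the lowest and within counting error of each other. The median log2 ratio over the 6 was -0.01, and it ran from -0.08 to 0.06 when single G libraries were left out. The trend-removed ratios ran from -0.42 to 0.10, turning the sign of G14. The gene overlaps 2 annotated genes on its own strand and has 3 pseudogenes, so reads shared with them make its level uncertain.

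DHCR7 (ENSG00000172893, minus strand of chromosome 11, 71428193 to 71452868) catalyses the last step from 7-dehydrocholesterol to cholesterol. It was at 239.6 TPM in the control, 279 (G3), 327 (G5), 292 (G11), 243 (G12), 207 (G13) and 288 (G14). G13 was the only library below the control, at 86.3% (82.7 to 90.04), and G12 was within counting error of it. G5 was the highest, at 137% (132 to 142). DHCR7 transcripts have a GC content of 58.3%, close to that of LSS. With the trend removed its ratio in G13 turned from -0.21 to 0.59 and that in G3 from 0.22 to -0.04, and the median over the 6 was 0.54 in place of 0.24.

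**Figure D2:**
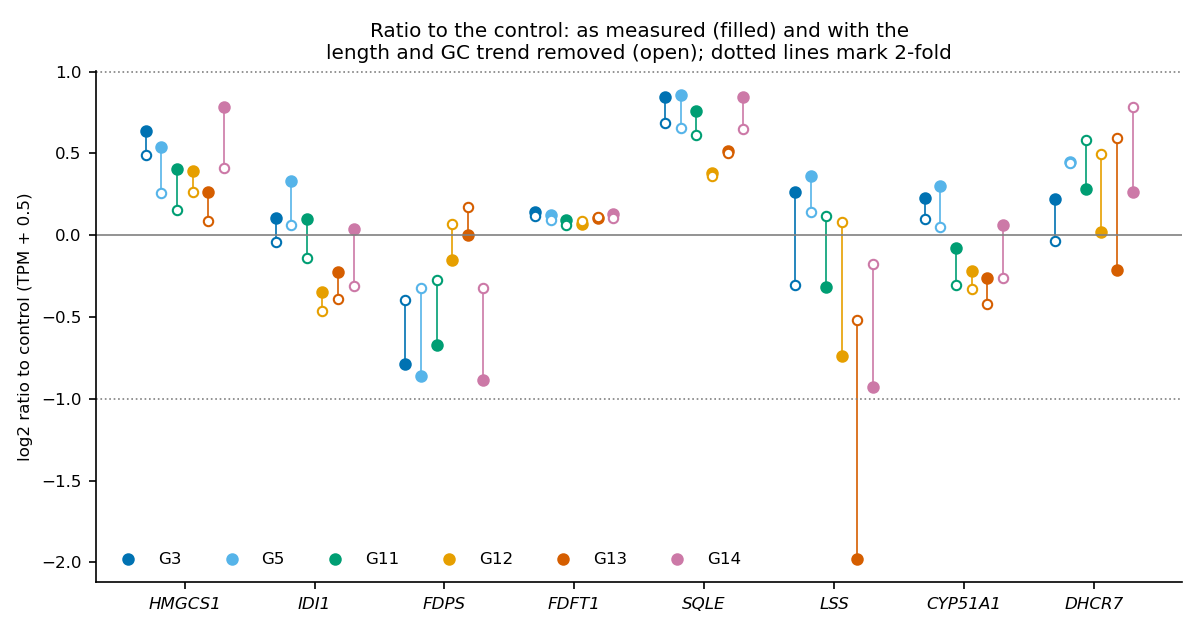
Log2 ratio to the control on the TPM + 0.5 scale (vertical axis) of the 8 enzymes (horizontal axis) in each G library (colour), as measured (filled) and with the length and GC trend removed (open); thin lines join both values of a pair and dotted lines mark 2-fold. The LSS point of G13 at -1.98 is the only filled point past a dotted line, and its open point is at -0.52; the open points of IDI1 rest on minor isoforms.

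As a group, the enzymes were not all on 1 side of the control. The median log2 ratio of the 8 was 0.22 (G3), 0.35 (G5), 0.10 (G11), -0.07 (G12), -0.11 (G13) and 0.10 (G14). Each was above the median of all compared genes in the same library, by 0.09 (G12) to 0.21 (G5). Median-of-ratios scaling turned 6 of the 48 ratios from negative to positive, those of CYP51A1 in G11, G12 and G13, FDPS in G12, and IDI1 and DHCR7 in G13. With the trend removed the medians of the 8 ran from -0.04 in G14 to 0.12 in G5, IDI1 included. Those of all genes were then 0.02 to 0.07. At a 1.5-fold threshold, HMGCS1 and SQLE counted as higher in G3 and G14 and SQLE alone in G5 and G11. The shares of all compared genes at least 1.5-fold higher were 8.71% in G3, 3.71% in G5, 6.53% in G11 and 15.5% in G14, and 5.08% and 6.86% in G12 and G13, where none of the 8 was. Those at least 1.5-fold lower were FDPS in G3, G5 and G11, LSS in G12 and G13, and both in G14. The shares of all genes were 12.3% (G3), 17.2% (G5), 22.5% (G11), 22.6% (G12), 29.1% (G13) and 31% (G14).

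The next question was whether the same isoforms made up each enzyme in every library. Isoforms holding at least 10% of their gene's reads on average numbered 13 over the 8 genes. For 7 of the 8 enzymes the makeup was nearly the same in all libraries. Usage was compared by the total variation distance to the control, a measure that is 0 for identical shares and 1 for genes with no isoform in common. It was at most 0.062 for the 7, against medians of all compared genes between 0.062 and 0.076. LSS was at 0.084 (G3), 0.094 (G5), 0.12 (G11), 0.14 (G12), 0.31 (G13) and 0.17 (G14). A distance of at least 0.2 was found only for LSS in G13, where 14.8% of compared genes reached it. The shares in the other libraries were 9.57% (G3), 9.25% (G5), 10.8% (G11), 11.1% (G12) and 14.6% (G14). With reference-ID isoforms only, the distance of LSS in G13 was 0.12. The distance was not corrected for read depth, and counting error raises it where reads are few. LSS in G13 had 526 reads, for a gene with 128 isoforms.

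SQLE was the simplest, with ENST00000265896.10 at 96.6% to 97.8% of its reads in every library. FDFT1 was led by ENST00000220584.9 at 90.1% to 92.4%, CYP51A1 by ENST00000003100.13 at 85.0% to 86.2% and DHCR7 by ENST00000355527.8 at 79.5% to 84.1%. IDI1 had a pair of leading isoforms with near-identical ends, ENST00000695775.1 at 59.9% to 64.0% and an isoform without a reference ID at 30.4% to 33.5%. FDPS was the most divided, over 373 isoforms, with ENST00000447866.5 at 32.4% to 34.4% and ENST00000467076.5 at 30.3% to 32.4%. Across libraries in which the FDPS total ran from 653 to 1206 TPM, the shares of its leading pair stayed within 2.1 percentage points.

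HMGCS1 divided between ENST00000433297.2, at 52.8% to 54.7% of its reads, and ENST00000325110.11, at 38.0% to 38.7%. These differ by a 59-nt exon at chr5:43307766-43307824 in the 5′ untranslated region, and both encode 520 codons. The exon was included in 41.7% of the reads of both isoforms in the control and in 41.6%, 41.0%, 41.3%, 41.0%, 42.3% and 41.8% in G3, G5, G11, G12, G13 and G14. Every library lay within the 95% Wilson interval of the control, 40.1 to 43.3. The share of this exon was level while the HMGCS1 total ran from 251 to 432 TPM.

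FDPS isoforms differ at their 5′ parts. The exon with the upstream start codon, printed above, adds 66 codons to the protein, 419 in place of 353. It was included in 10.1% of the reads of annotated FDPS isoforms in the control (9.65 to 10.6), 12.4% (G3), 13.02% (G5), 12.7% (G11), 11.1% (G12), 11.9% (G13) and 13.2% (G14), the interval of G14 being 12.6 to 13.9. The control was the lowest and its interval did not overlap that of any G library, though G12 was close, at 10.7 to 11.5. On the TPM scale the reads with the exon stood at 96.7 in the control and 70.1 in G14, and those without it at 860 and 459. The 21-nt segment that opens the longer version of the next exon was present in 51.8% of reads in the control (51.0 to 52.5) and in 52.9% to 54.7% in the G libraries. That segment lies ahead of the main start codon and is annotated as translated, in 7 codons, when the upstream start codon is present. A first exon that ends at base 155309076 of chromosome 1 was used in 9.93% of reads in the control and in 12.96% (G3), 11.5% (G5), 10.6% (G11), 9.86% (G12), 8.68% (G13) and 9.80% (G14), the first exon of the others ending at base 155308965.

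**Figure D3:**
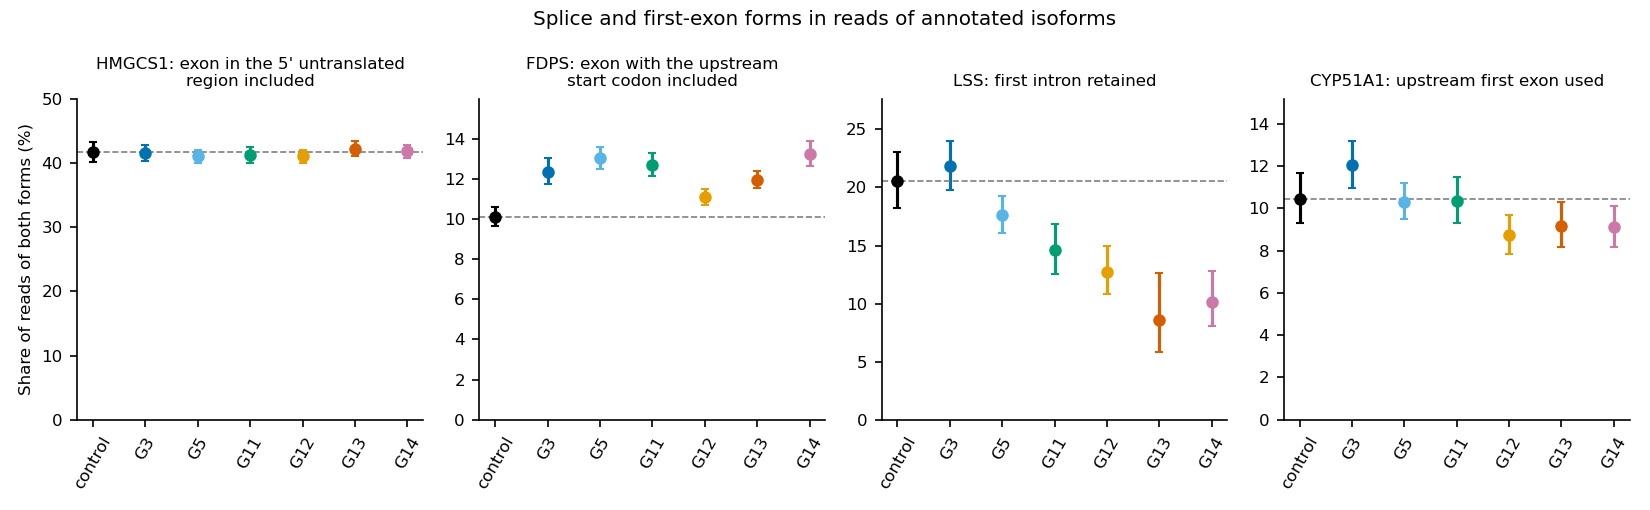
Share in percent (vertical axis, from 0) of reads that carry 1 form out of both, in annotated isoforms of HMGCS1, FDPS, LSS and CYP51A1, for each library (horizontal axis) with Wilson 95% intervals and a dashed line at the control. HMGCS1 is level at 41.0% to 42.3%, the FDPS exon is lowest in the control at 10.1%, and retention of the first LSS intron runs from 21.8% in G3 down to 8.61% in G13.

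LSS was the enzyme whose isoforms differed most between libraries. Its leading isoform ENST00000397728.8 held 48.0% of reads in the control, 50.5% (G3), 52.6% (G5), 49.9% (G11), 49.8% (G12), 40.7% (G13) and 47.4% (G14), and stood lowest in G13. ENST00000457828.6, which keeps the first intron, held 14.3% in the control, 16.0% (G3), 12.8% (G5), 9.91% (G11), 8.42% (G12), 4.37% (G13) and 6.30% (G14). Its share was lowest in the same libraries in which LSS itself was lowest. An isoform without a reference ID, called LSS hashed isoform 1 here, was at 8.94% to 11.8%.

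The first intron of LSS, whose edges are printed above, spans chr21:46228600-46228731 and is 132 nt long with a GC content of 74.2%. The annotated isoform that keeps it encodes 652 codons, against 732 in the leading isoform. Among reads of annotated LSS isoforms the intron was retained in 20.6% in the control (18.3 to 23.1), 21.8% in G3 (19.8 to 24.0), 17.6% in G5 (16.1 to 19.2), 14.6% in G11 (12.6 to 16.9), 12.7% in G12 (10.8 to 15.0), 8.61% in G13 (5.81 to 12.6) and 10.2% in G14 (8.05 to 12.8). The intervals of G3 and G5 overlapped that of the control, and those of the other 4 lay below it. The annotated isoforms compared held 69.5% of LSS reads in the control, 73.3% (G3), 72.6% (G5), 67.9% (G11), 66.1% (G12), 50.8% (G13) and 61.9% (G14). Whether the remaining LSS reads, of isoforms without a reference ID, keep the intron is not known. The reads behind the retained form were 222 in the control, 318 (G3), 387 (G5), 153 (G11), 124 (G12), 23 (G13) and 64 (G14), so the G13 value rests on few reads. G13 was lowest and G14 next, as for the LSS level. The retained intron adds GC-rich sequence to the transcript, and whether that has a part in its share was not tested.

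The 33-nt segment of the longer LSS exon, 11 codons, was missing from 10.3% of reads of annotated isoforms in the control (8.61 to 12.2) and from 9.06% to 12.7% in the G libraries. All of their intervals overlapped that of the control. A second isoform without a reference ID, LSS hashed isoform 2, had a higher share where LSS as a whole was low and was singled out after its values were seen. It held 1.61% of LSS reads in the control (1.09 to 2.36), 1.31% (G3), 1.75% (G5), 4.21% (G11), 4.82% (G12), 14.8% (G13) and 6.99% (G14), the interval of G13 being 12.05 to 18.1. Its reads numbered 25 in the control, 26 (G3), 53 (G5), 65 (G11), 71 (G12), 78 (G13) and 71 (G14). On the TPM scale it was at 1.49 in the control and 3.42 in G13, where the leading isoform was at 44.4 and 9.39. Its ends lie within 10 bases of those of ENST00000522411.5, and its exons and length are not given in the table.

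**Figure D4:**
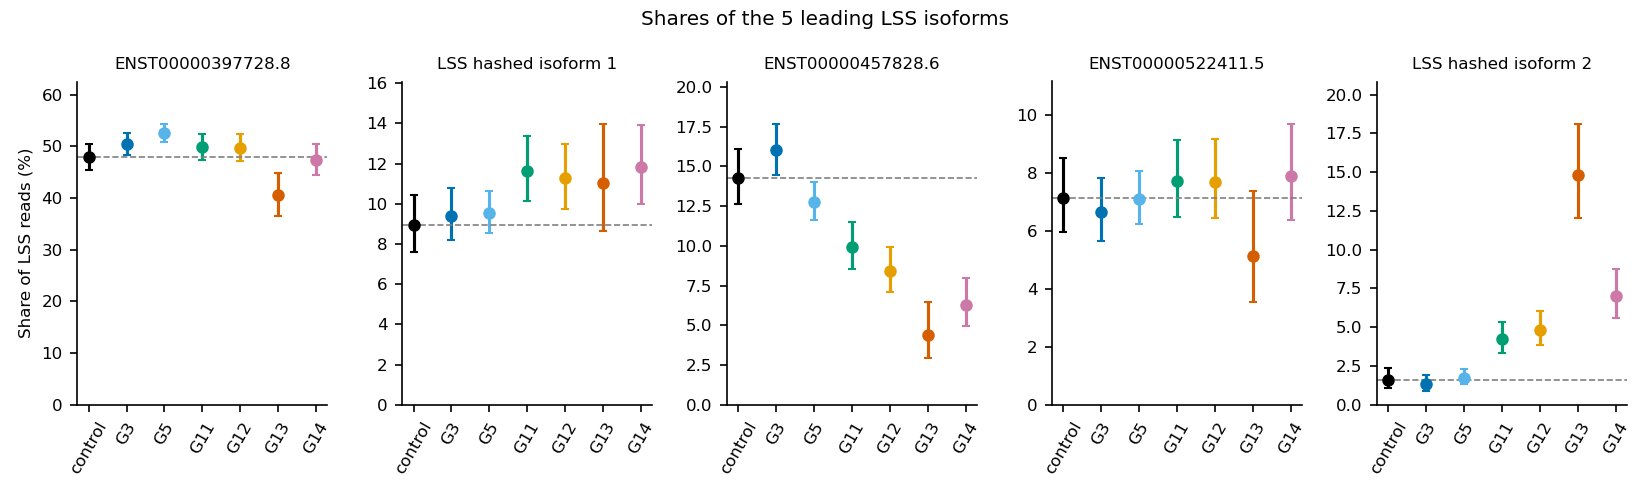
Share of LSS reads in percent (vertical axis, from 0, each panel on its own scale) held by each of the 5 leading isoforms in each library (horizontal axis), with Wilson 95% intervals and a dashed line at the control. ENST00000457828.6, which keeps the first intron, is lowest in G13 at 4.37%, where LSS hashed isoform 2 is highest at 14.8%.

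CYP51A1 has an upstream first exon at chr7:92134666-92134803, used by ENST00000450723.5, which encodes 404 codons against 509 for the main isoform. It was used in 10.4% of reads of both in the control (9.32 to 11.7), 12.04% (G3), 10.3% (G5), 10.4% (G11), 8.72% (G12), 9.18% (G13) and 9.10% (G14). G3 was highest and G12 lowest, and the intervals of all 6 overlapped that of the control.

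Some isoforms start more than 1000 nt downstream of the leading start, a distance counted on the genome with introns included. Their transcripts need not be shorter by that much. An internal start, a downstream first exon and an incomplete cDNA cannot be told apart here. Such isoforms held 3.41% of IDI1 reads in the control, 2.86% (G3), 3.20% (G5), 4.85% (G11), 5.10% (G12), 5.59% (G13) and 6.69% (G14). The share of DHCR7 was 4.80% in the control, 4.82% (G3), 4.22% (G5), 5.53% (G11), 6.57% (G12), 8.47% (G13) and 7.63% (G14). The share of CYP51A1 was 3.55% in the control and 2.71%, 3.06%, 3.46%, 4.81%, 5.41% and 5.66% in the same order. These 3 enzymes had the highest shares of the 8 and were named after the values were seen; in them G12, G13 and G14 stood above the control. FDFT1 and FDPS were also above the control in G12, G13 and G14, at 2.31% to 2.81% against 1.74% and at 2.54% to 3.06% against 2.28%. LSS was below the control in G12 (1.36% against 1.41%) and in G13 (0.380%, from 2 reads), HMGCS1 was below it in G12 (1.00% against 1.09%), and SQLE had no such read in any library. The mean over all compared genes was 2.53% in the control, 1.98% (G3), 2.28% (G5), 2.93% (G11), 3.33% (G12), 3.84% (G13) and 3.43% (G14) and was also above the control in G11, G12, G13 and G14. The RNA integrity numbers in the labels lie between 8.7 and 9.7 and are not given per library.

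The rest of the pathway was described from lists of genes. Of 14 other synthesis enzymes, all 14 passed the level minimum. None was 2-fold higher in any library, and 1 or 2 were 2-fold lower in each, against 5.14% (G3) to 18.9% (G14) of all compared genes, so these counts are near the background. PMVK, phosphomevalonate kinase, was lower in all 6: it was at 41.1 TPM in the control, 16.2 (G3), 13.3 (G5), 15.8 (G11), 18.3 (G12), 16.3 (G13) and 9.69 (G14). The other calls were EBP, a sterol isomerase, in G5 (log2 ratio -1.17) and G14 (-1.11), and MVD, mevalonate diphosphate decarboxylase, in G13 (-1.12). SC5D, the desaturase ahead of DHCR7, had the highest median log2 ratio of the list at 0.56. With the trend removed, 1 call was left, PMVK in G14 at -1.16, and MVD in G13 changed sign, to 0.25. The list's median log2 ratio was 0.02 (G3), 0.08 (G5), 0.19 (G11), 0.05 (G12), 0.15 (G13) and 0.10 (G14).

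Of 7 regulators of the pathway, all passed the level minimum. SREBF2 was at 78.6 TPM in the control, 122 (G3), 85.3 (G5), 26.5 (G11), 21.0 (G12), 4.34 (G13) and 17.5 (G14). SCAP was at 40.2, 66.4, 42.1, 12.6, 8.81, 1.45 and 3.68 TPM in the same order. SREBF1, which encodes the factor of fatty acid synthesis, was at 9.11, 23.9, 6.36, 0.864, 0.412, 0.0439 and 0.239 TPM, and its 1 read in G13 and 5 in G14 allow no precise ratio. These 3 regulators were 2-fold lower in each of G11, G12, G13 and G14, and in G3 SREBF1 was 2-fold higher. Among all compared genes 10.4% (G11), 8.79% (G12), 14.6% (G13) and 18.9% (G14) were 2-fold lower and 1.89% were 2-fold higher in G3. The 3 were still 2-fold lower with the trend removed in those 4 libraries, SCAP in G11 only just at -1.003, and SREBF1 in G3 was at 0.63. The summed fibroblast markers COL1A1 and COL1A2, given with LSS, were also lower than in the control in those 4 libraries, lowest in G13, and highest in G3, and their part in these values was not tested. SREBF2 transcripts are 5241 nt long and have a GC content of 58.0%, and SCAP transcripts 3960 nt and 62.6%.

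INSIG1 was at 273 TPM in the control, 394 (G3), 333 (G5), 289 (G11), 246 (G12), 228 (G13) and 263 (G14), within 1.5-fold of the control. INSIG2 was the regulator with the highest median log2 ratio, 0.63, at 120 TPM in the control and 129 (G3) to 231 (G14) elsewhere. In G13 SREBF2 and SCAP had log2 ratios of -4.03 and -4.39. The enzymes went both ways in that library. HMGCS1 was at 0.27, SQLE at 0.52, FDFT1 at 0.10 and FDPS at 0.002. LSS was at -1.98, CYP51A1 at -0.26, IDI1 at -0.23 and DHCR7 at -0.21. Removal of the trend placed SREBF2 and SCAP in G13 at -2.52 and -2.56. HMGCS1, SQLE and FDFT1 were then at 0.09, 0.50 and 0.11. FDPS, LSS, CYP51A1 and DHCR7 were then at 0.17, -0.52, -0.42 and 0.59. Whether the levels of these regulators have a part in those of the enzymes was not tested.

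**Figure D5:**
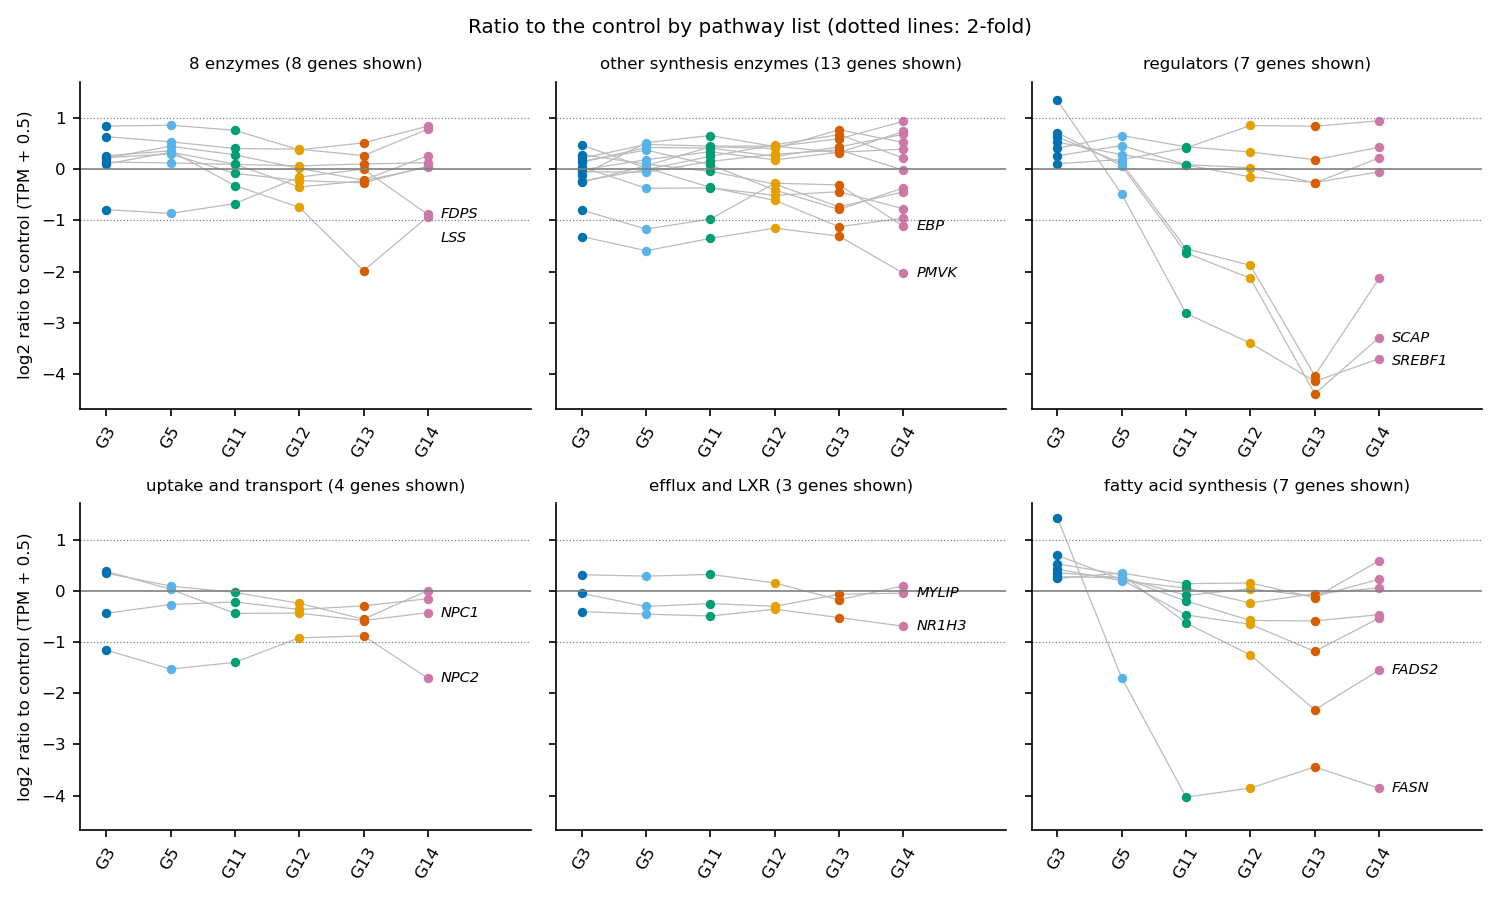
Log2 ratio to the control on the TPM + 0.5 scale (vertical axis) in each G library (horizontal axis) for the 8 enzymes and genes of 5 other lists; each grey line joins the values of 1 gene, dotted lines mark 2-fold, and the 2 genes with the lowest values in each panel are named. In G11 to G14 the regulators SREBF1, SREBF2 (unlabelled) and SCAP lie below -1.5, while the 8 enzymes other than LSS stay between -1 and 1.

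Among the genes of sterol uptake and transport, NPC2, which moves cholesterol out of lysosomes, was lower in all 6, at 101 TPM in the control and 30.7 to 54.8 in the G libraries, past 2-fold in G3, G5, G11 and G14. Of all compared genes, 5.14% (G3), 10.1% (G5), 10.4% (G11) and 18.9% (G14) were 2-fold lower. The control was above all 6 G libraries for 20.5% of them. NPC2 was past 2-fold in no library with the trend removed, its ratios running from -0.58 to -0.99 over the 6 libraries. VLDLR, a lipoprotein receptor, had the highest median ratio of the list, -0.01.

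Of 5 genes of sterol efflux and its nuclear receptors, 4 were in the table, 3 passed the level minimum and none of the 3 was called. NR1H3 had a median log2 ratio of -0.47 and NR1H2 of 0.22, and with the trend removed these were -0.01 and 0.90, NR1H2 passing 2-fold in G14 at 1.07. Of 8 fatty acid synthesis genes, 7 passed. FASN, fatty acid synthase, was at 11.6 TPM in the control, 32.0 (G3), 3.22 (G5), 0.240 (G11), 0.337 (G12), 0.614 (G13) and 0.334 (G14), the last 4 resting on 5 to 14 reads. It was 2-fold higher in G3 and 2-fold lower in the other 5, against the background shares given above. Its ratio in G3 was 0.45 with the trend removed, no longer past 2-fold, that in G13 turned to 0.18, and the other 4 were still past 2-fold. FADS2, a fatty acid desaturase, was 2-fold lower in G12, G13 and G14, and ACLY, which supplies acetyl-CoA from citrate, was 2-fold lower in G13. None of these 4 calls was left with the trend removed, FADS2 being at -0.48, -0.98 and -0.79 and ACLY at -0.57. ACSS2 had the highest median ratio of the list, 0.20.

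Finally, the genes whose levels ran most like the mean of the 8 enzymes over the 7 libraries were sought among 6611 genes with a mean of at least 10 TPM. Likeness was the Euclidean distance between centred log2 levels, with a median of 0.74 over these genes. The nearest were SP3, a zinc-finger transcription factor, at 0.054, PRKCSH, a subunit of glucosidase II, at 0.088 and PPM1D, a protein phosphatase, at 0.098. SP3 was at 22.0 TPM in the control, 25.5 (G3), 26.6 (G5), 24.2 (G11), 21.3 (G12), 19.04 (G13) and 22.9 (G14). Of the enzymes themselves, CYP51A1 lay nearest to their mean, at 0.196, and LSS farthest, at 1.66. The mean of the 8 centred log2 levels was highest in G5, at 0.22, and lowest in G13, at -0.26. In G13 the members ran from -1.50, which was LSS, to 0.48. This mean also averages members that ran in opposite directions. FDPS had a negative correlation with every other enzyme over the 7 libraries, from -0.49 with LSS to -0.91 with DHCR7.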

How the data were processed

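Per the labels' protocols, the authors joined cDNA into 8-fold arrays, sequenced them and split them into reads that each stand for 1 molecule; minimap2 2.17 and GRCh38 (hg38) are named in the submitters' processing notes. Per the file headers, each isoform has a count of full-length reads and a TPM in every library. Dividing the deposited counts by 1 constant for each library gave the deposited TPM to within 0.005, and the constants gave the library totals. Isoforms absent from the control were not listed; listed reads made up 98.1% to 98.6% of each G library. Other assignment software and filters are not given in the sources used here. Rows without a gene ID, 0.106% to 0.191% of listed reads, stayed out of gene values.

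Isoforms were summed by Ensembl stem, 440 joined IDs going with the gene they start with. Ratios are on log2(TPM + 0.5), for genes with a mean of at least 5 TPM. Ratio intervals are exact (Clopper-Pearson) and share intervals Wilson, at 95%; reads carry no molecular identifiers, so both cover counting error only. Length, GC content, exons and sequences came from GENCODE 29, transcript IDs matched without version; 7736 of 7877 genes had length and GC. The trend is a per-library quadratic surface over log2 length and GC. Splice forms compare annotated isoforms with and without a segment and were chosen after isoform values were seen.

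The members and lists were chosen with earlier results of these data known. The rule for names covered the 8 enzymes, their isoforms holding at least 10% of reads, SREBF2, INSIG1 and other genes that are not reported here, the highest and lowest median ratio of each list, and the 3 most similar genes; other names were added after their values were seen. Scripts were tested on simulated data. Alternatives tried were other pseudocounts (0.1 and 1), scalings, thresholds, level minimums, isoform subsets, end windows and references. Python 3.11.15, numpy 2.4.6, pandas 2.3.3, scipy 1.17.1 and matplotlib 3.10.9 were used.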

Additional observations from a re-analysis of the deposited data

How the results depend on the processing

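With 1 library per group there is no error between cultures, and the control library enters every ratio. No paired analysis was possible because each group is 1 library and all carry the same replicate number. Isoform ends in the table differ from the annotation, and genes of low level have wide counting intervals. No called value of the 8 enzymes changed sign under the alternatives tried; in the other lists, FASN and MVD in G13 did with the trend removed, to 0.18 and 0.25.

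With a 1.5-fold threshold the enzymes counted as higher and lower were 2 and 1 in G3, 1 and 1 in G5, 1 and 1 in G11, 2 and 2 in G14, and 1 lower in G12. Without the length and GC trend, the lower count in G13 was 0 and the medians of the 8 were 0.031 (G3), 0.12 (G5), 0.086 (G12), 0.10 (G13) and -0.036 (G14). Median-of-ratios scaling gave medians of 0.27 (G11), 0.20 (G12), 0.21 (G13) and 0.34 (G14), and 2 higher in G14. With the median of the other 6 libraries as the reference they were 0.14 (G3), 0.27 (G5), 0.017 (G11), -0.24 (G12) and -0.29 (G13). With joined IDs left out the G14 median was 0.14. With reference-ID isoforms only, 1 enzyme was lower in G14 and 0 pairs reached a usage distance of 0.2. The cause was not tested.

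Of gene and library pairs, median-of-ratios scaling gave 2 higher and 5 lower (in place of 0 and 9) among other synthesis enzymes and 4 higher (in place of 1) among regulators. Removing the trend gave 1 lower among other synthesis enzymes, 0 higher among regulators, 1 lower (in place of 8) in uptake, 1 higher (in place of 0) in efflux, and 0 higher and 4 lower (in place of 1 and 9) in fatty acid synthesis. Leaving out each G library in turn moved the median ratio of LSS between -0.74 and -0.32, of SQLE between 0.76 and 0.84, of FDPS between -0.79 and -0.67 and of HMGCS1 between 0.41 and 0.54. Of the checks on the counts of calls and the medians of the 8, 161 kept their size and side and 37 moved, all given here. Other checks covered single genes, background shares, and isoform and end shares. Of these, 540 stayed the same, 25 moved, 3 became stronger and 2 weaker, and not all of them are given.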
